A study of Mus musculus with 4 samples.

Results

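Cytosolic heat shock proteins were followed across brain RNA of Bcas1 knockout and wild-type mice on Affymetrix arrays, in 23 probe sets of 9 genes out of 45037 probe sets tested. A probe set was taken when the platform's probe-to-gene table named exactly 1 of 10 genes for it: Hspa1a, Hspa1b, Hspa8, Hsp90aa1, Hsp90ab1, Hsph1, Dnajb1, Hspb1, Hspb3 and Hspb8. Hsp90ab1 is named for no probe set in that table and was not analysed here, and 0 probe sets named a member together with another gene. Both groups were male C57BL/6 mice aged 8 to 9 weeks from crosses of heterozygous carriers, 2 homozygous Bcas1 knockout (-/-) and 2 wild type (+/+), with 1 array per mouse. The labels do not say how Bcas1 was disrupted. Bcas1 encodes a protein of myelin-forming oligodendrocytes. Values are RMA levels on the log2 scale, so a difference of 1 is a doubling, and differences are knockout minus wild type.

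Heat shock proteins are chaperones that keep other proteins folded. When unfolded proteins accumulate, as in heat, heat shock factor 1 (HSF1) is released from chaperones, forms trimers and binds heat shock elements, inverted repeats of GAA, upstream of stress-induced genes. Hspa1a, Hspa1b, Dnajb1, Hsph1, Hsp90aa1 and Hspb1 are known for strong induction in this way, while Hspa8 and Hsp90ab1 are constitutive relatives that are abundant in unstressed neurons. HSP70 proteins (Hspa1a, Hspa1b, Hspa8) bind and release client peptides, Dnajb1 is a J-domain partner that stimulates their ATPase, Hsph1 is an HSP110 nucleotide exchange factor, Hsp90aa1 matures signalling proteins, and the small proteins Hspb1, Hspb3 and Hspb8 hold unfolded clients without ATP.

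The bases before the start sites of 4 stress-induced members are shown because these genes are known for induction by HSF1 and each carries a pair of facing heat shock repeats. Each run is the 250 bases before the start in RefSeq's annotation of mouse assembly GRCm38.p6, read along the gene, with matches to GAANNTTC or TTCNNGAA in capitals. Each of these motifs reads the same on both strands, and overlapping matches were allowed. The positions are chr17:34972157-34972406 (minus strand) for Hspa1a, chr17:34959239-34959488 (minus strand) for Hspa1b, chr5:135887669-135887918 (plus strand) for Hspb1 and chr5:149636337-149636586 (minus strand) for the first of 2 listed starts of Hsph1.
Hspa1a: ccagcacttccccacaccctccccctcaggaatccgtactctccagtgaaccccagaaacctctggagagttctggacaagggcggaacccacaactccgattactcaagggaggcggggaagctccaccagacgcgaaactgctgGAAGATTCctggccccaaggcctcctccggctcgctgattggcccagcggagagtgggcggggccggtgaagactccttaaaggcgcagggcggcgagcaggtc
Hspa1b: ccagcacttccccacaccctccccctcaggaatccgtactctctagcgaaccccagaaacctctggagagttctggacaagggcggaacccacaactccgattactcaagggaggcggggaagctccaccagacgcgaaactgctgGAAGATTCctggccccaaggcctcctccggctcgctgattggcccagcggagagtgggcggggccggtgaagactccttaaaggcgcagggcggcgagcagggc
Hspb1: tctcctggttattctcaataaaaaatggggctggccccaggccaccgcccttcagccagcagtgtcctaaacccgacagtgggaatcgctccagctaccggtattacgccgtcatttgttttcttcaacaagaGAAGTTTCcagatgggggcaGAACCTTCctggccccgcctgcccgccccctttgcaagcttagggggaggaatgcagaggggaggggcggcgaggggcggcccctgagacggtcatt
Hsph1: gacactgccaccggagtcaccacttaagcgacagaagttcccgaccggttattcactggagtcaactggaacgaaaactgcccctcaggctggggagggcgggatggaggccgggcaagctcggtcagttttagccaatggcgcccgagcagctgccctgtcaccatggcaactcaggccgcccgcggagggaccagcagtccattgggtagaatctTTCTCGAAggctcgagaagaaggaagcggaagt

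The Hspa1a and Hspa1b windows differed at 3 of 250 positions. The genes are neighbouring near-identical copies on chromosome 17, so array probes for one can read the other, and values given for either are uncertain to that extent. Of the 10 members, 7 had a window in the table. Hspa8, Hsp90aa1 and Hsp90ab1 had none, so the constitutive class was not examined here. Of the 7, 5 held a pair motif (Hspa1a, Hspa1b, Hsph1, Hspb1 and Hspb3), beside 14.5% of 27025 genes with a window. The near-identical Hspa1a and Hspa1b windows both count in that number, so they are not separate cases. Dnajb1, of the stress-induced class, held 0 pair motifs in each of its windows, and Hspb8 held 0, while Hspb3 is outside that class. A triple, GAANNTTCNNGAA or TTCNNGAANNTTC, was present in 0 of the 7, beside 0.514% of all genes. A match is a stretch of letters and no measurement of binding.

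The brightest Bcas1 probe set measured 11.05 and 10.75 in the knockout mice, against 12.17 and 12.21 in the wild-type mice, and differed by -1.29 (adjusted p = 0.742 in limma). The other Bcas1 sets, dim ones, were higher in the knockout. One measured 5.86 and 6.38 in the knockout mice, against 5.37 and 5.34 in the wild-type mice, and the other 5.89 and 6.00 in the knockout mice, against 5.11 and 5.50 in the wild-type mice. Their differences were 0.765 and 0.64 (adjusted p = 1 for each in limma). The labels do not place the sets with respect to the disruption, so they are a limited check of the labels. Neuronal markers were bright on all arrays (Snap25 at 14.06 to 14.18), and so were cerebellar markers such as Pcp2 (11.50 to 11.61), although the sample descriptions name the cerebrum. Knockout array 2 stood apart through transcripts of nasal epithelium and glands: the 5 markers averaged 4.55 and 7.77 in knockout mice 1 and 2, against 4.52 and 4.78 in the wild-type mice. In bulk tissue, fewer cells of a type and less RNA per cell cannot be told apart.

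None of the 23 probe sets passed the test of knockout against wild type. Adjusted over the whole table in limma, the p was 1 for each of them, while 0.00444% of probe sets were called (2 of 45037, both lower and neither a member, with 0 higher). At an unadjusted p under 0.05 there were 2 of the 23, 1 of Hspb3 and 1 of Dnajb1, beside 3.42% of all probe sets. A missed threshold with so few mice leaves differences possible. The differences ran from -0.51 (Hspa8) to 0.27 (Hspb3), with a median of -0.05 beside a median of 0 over all probe sets. Of the 23, 17 were negative, beside 22228 of the 45037 probe sets tested. Hspa1a, Hspa1b and Dnajb1 were the genes whose probe sets averaged more than 0.2 lower in the knockout, and in Hspa1b most of that lay in knockout mouse 1.

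Hspa1b, the heat-inducible HSP70, was low in 1 of the 2 knockout mice. Its brightest probe set measured 9.45 and 10.04 in the knockout mice, against 10.20 and 9.96 in the wild-type mice. Knockout mouse 1 was the lowest array by 0.51, and knockout mouse 2 lay between the wild-type mice. The other probe sets repeated this, at 8.18 and 8.77 in the knockout against 8.95 and 8.84 in wild type, and at 8.02 and 8.69 in the knockout against 8.86 and 8.73 in wild type. In both of these, knockout mouse 2 was just below the lower wild-type mouse, so the groups did not overlap. The differences of the 3 sets were -0.34 (SE 0.22), -0.42 (SE 0.21) and -0.44 (SE 0.23) in limma, and the wild-type level was 1.26, 1.34 and 1.36 times that of the knockout. Their 95% intervals reached from -0.90 to 0.23, from -0.96 to 0.12 and from -1.05 to 0.17. Without knockout mouse 1 the same differences were -0.04, -0.13 and -0.11, and without knockout mouse 2 they were -0.63, -0.72 and -0.78. The gap of 0.59 to 0.67 between the knockout mice was matched or exceeded by 1.28% to 0.755% of all probe sets above the median level. The 3 sets are named for the same gene, so they are repeated readings of 4 mice and not further replicates. The second has an identifier ending in x_at, and such sets may also bind related sequences.

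Hspa1a, the neighbouring copy, had the same order of the arrays in its single probe set as the brightest Hspa1b set, with knockout mouse 1 lowest and wild-type mouse 1 highest. It measured 8.65 and 8.86 in the knockout mice, against 9.22 and 8.73 in the wild-type mice. Wild-type mouse 1 stood farthest from the other arrays and the groups overlapped. The difference of -0.22 (SE 0.19 in limma, 95% interval -0.71 to 0.27) turned to 0.025 without wild-type mouse 1.

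**Figure D1:**
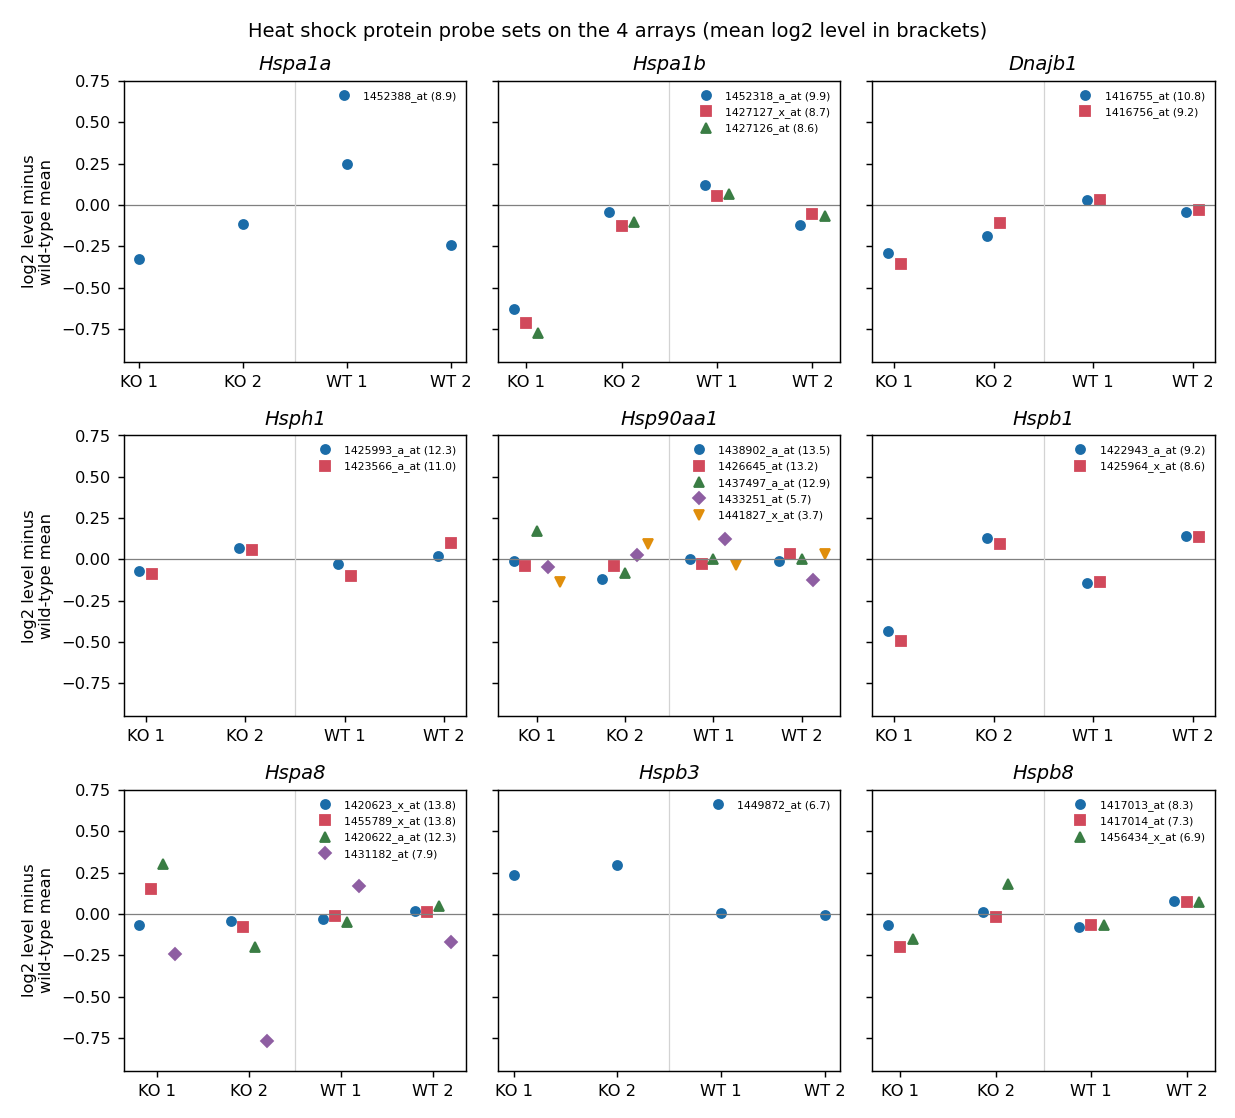
Log2 level of each member probe set minus its own wild-type mean (y axis), on the 4 arrays (x axis, knockout left, KO, and wild type right, WT), 1 panel per gene and 1 symbol per probe set with its mean level in brackets. Hspa1b and Hspb1 are lowest in knockout mouse 1, Dnajb1 is below 0 in both knockout mice, Hspb3 is above 0 in both, and the Hspa8 probe sets part from each other.

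Dnajb1, the J-domain partner of HSP70, was lower in both knockout mice on both of its probe sets. The brighter measured 10.65 and 10.75 in the knockout mice, against 10.97 and 10.90 in the wild-type mice. The dimmer measured 8.97 and 9.22 in the knockout mice, against 9.36 and 9.30 in the wild-type mice. Neither set overlapped between the groups, and knockout mouse 1 was again the lowest array on both. Each differed by -0.235, with SEs of 0.079 and 0.11 in limma, and the wild-type level was 1.18 times that of the knockout. The 95% interval ran from -0.44 to -0.028 for the brighter set and from -0.52 to 0.047 for the dimmer. As the groups did not overlap, leaving out 1 array could not turn the sign. The difference of the brighter set then ranged from -0.285 to -0.185. That of the dimmer set ranged from -0.36 without knockout mouse 2 to -0.11 without knockout mouse 1.

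Hsph1, the nucleotide exchange factor induced together with HSP70 in heat, had nearly equal means in the groups. Its brighter probe set measured 12.21 and 12.35 in the knockout mice, against 12.25 and 12.30 in the wild-type mice. The knockout mice lay on either side of the wild-type mice, and the difference was 0.005 (SE 0.084 in limma, 95% interval -0.21 to 0.22). The other set differed by -0.015 (SE 0.11 in limma), and its 95% interval, -0.29 to 0.26, includes the difference found for Dnajb1.

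Hsp90aa1, the inducible cytosolic HSP90, had 3 bright and 2 dim probe sets. The brightest measured 13.53 and 13.42 in the knockout mice, against 13.54 and 13.53 in the wild-type mice. A second bright set measured 13.17 in both knockout mice, against 13.18 and 13.24 in the wild-type mice, and was the 1 set of 5 without overlap. The third measured 13.05 and 12.80 in the knockout mice, against 12.88 in both wild-type mice, with the knockout mice on opposite sides. The 5 differences lay between -0.06 and 0.045, with SEs of 0.071 to 0.11 in limma. The 2 dim sets, at mean levels of 5.73 and 3.74, could not be separated from background without detection calls.

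Hspb1 (HSP25 in mouse), an inducible small heat shock protein that in brain is known from astrocytes and vessels, was lowest in knockout mouse 1. The brighter set measured 8.84 and 9.40 in the knockout mice, against 9.13 and 9.41 in the wild-type mice. The dimmer set measured 8.19 and 8.78 in the knockout mice, against 8.55 and 8.82 in the wild-type mice. On both sets the mice numbered 1 were the lower of their group and the groups overlapped. The differences were -0.15 (SE 0.21) and -0.20 (SE 0.22) in limma, and they turned to 0.13 and 0.095 without knockout mouse 1. The 5 endothelial markers averaged 7.70 and 7.88 in knockout mice 1 and 2, against 7.74 and 7.77 in the wild-type mice. Knockout mouse 1 had the lowest average, but the markers differed. It was lowest in the dimmest, Cdh5 and Pecam1, and tied with wild-type mice for lowest in Flt1 and Tek. In Cldn5, the brightest, it was not lowest, at 9.49 against 9.48 and 9.41 in the wild-type mice. The 5 astrocyte markers averaged 10.98 and 10.87 in knockout mice 1 and 2, against 10.85 and 10.86 in the wild-type mice, with knockout mouse 1 highest. The part of either list in the Hspb1 values was not tested.

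Hspb8, which works with the co-chaperone Bag3 in clearing damaged proteins, differed by -0.03, -0.11 and 0.015 on its 3 probe sets, with SEs of 0.09 to 0.14 in limma. The brightest measured 8.24 and 8.32 in the knockout mice, against 8.23 and 8.39 in the wild-type mice. All 3 sets overlapped between the groups.

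Hspb3, a small heat shock protein known mainly from muscle, was the member with higher values in both knockout mice. It measured 6.81 and 6.87 in the knockout mice, against 6.58 and 6.57 in the wild-type mice. The mice within a group were close together, by 0.06 and 0.01, and the groups were apart by 0.23. The difference was 0.265 (SE 0.071, 95% interval 0.079 to 0.45 in limma), a 1.20-fold higher level in the knockout. It ranged from 0.235 to 0.295 with any 1 array left out. Its mean level of 6.71 was just above the array median of 6.49, where signal and background are hard to separate. The 5 skeletal muscle markers averaged 5.50 and 5.75 in the knockout mice, against 5.42 and 5.50 in the wild-type mice, and 4 of the 5 were under the array median. Their part in the Hspb3 value was not tested.

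Hspa8, the constitutive HSP70 of neurons, gave probe sets that disagreed. The brightest measured 13.77 and 13.80 in the knockout mice, against 13.81 and 13.86 in the wild-type mice. Its difference of -0.05 (SE 0.071 in limma) was without overlap but small beside the SE. A second set at the same brightness measured 13.90 and 13.67 in the knockout mice, against 13.74 and 13.76 in the wild-type mice. The third measured 12.58 and 12.08 in the knockout mice, against 12.23 and 12.33 in the wild-type mice. In both of these, knockout mouse 1 was the highest array and knockout mouse 2 the lowest, whereas Hspa1b was lowest in knockout mouse 1. The differences of 0.035 and 0.05 turned to -0.08 and -0.20 without knockout mouse 1. The dimmest set measured 7.89 and 7.36 in the knockout mice, against 8.30 and 7.96 in the wild-type mice. It had the lowest difference among the 23 sets, -0.505 (SE 0.22 in limma, 95% interval -1.07 to 0.059), with knockout mouse 2 lowest and a gap of 0.07 between the groups. It was -0.77 without knockout mouse 1, -0.24 without knockout mouse 2, and -0.335 without wild-type mouse 1. The files do not say which part of Hspa8 each set reads. Sets whose identifier ends in x_at, which include both of the brightest here, may also bind related sequences.

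The choice of genes asks whether stress-induced chaperones moved apart from constitutive ones on the arrays. For this, each probe set was set to 0 at its wild-type mean, and the 15 sets of the 6 stress-induced genes and the 4 of Hspa8 were averaged per array, with no test, since the genes were chosen with earlier results known. The stress-induced average was -0.28 and -0.029 in knockout mice 1 and 2, against 0.014 and -0.014 in the wild-type mice. The Hspa8 average was 0.036 and -0.27 in knockout mice 1 and 2, against 0.021 and -0.021 in the wild-type mice. Stress-induced minus constitutive was thus -0.32 in knockout mouse 1 and 0.24 in knockout mouse 2, against -0.0069 and 0.0069 in the wild-type mice. The centring makes the wild-type values mirror each other. Opposite deviations cancel in them, as for Hspa1a (0.245 and -0.245) and Hspb1 (-0.14 and 0.14), so their closeness is no measure of spread between mice. The knockout mice lay on opposite sides of the wild-type mice, and their mean of -0.038 was small beside their SD of 0.40 (n = 2). Over all tested probe sets the same average was -0.012 and 0.0065 in the knockout mice.

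**Figure D2:**
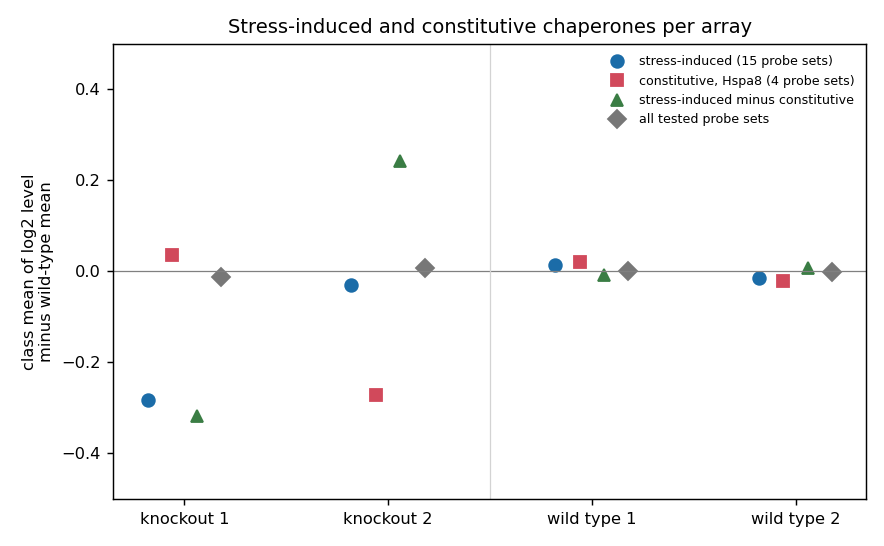
Class average of the log2 level minus the wild-type mean of each probe set (y axis) on each array (x axis, knockout left), for the stress-induced sets, the Hspa8 sets, their difference and all tested probe sets. The difference is -0.32 in knockout mouse 1 and 0.24 in knockout mouse 2, with both wild-type mice within 0.0069 of 0. The wild-type values mirror each other because of the centring, and opposite deviations of single genes cancel in them.

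The dimmest Hspa8 set bore on these averages. Without it, a choice made after the data were seen, Hspa8 averaged 0.13 and -0.11 in knockout mice 1 and 2, against -0.028 and 0.028 in the wild-type mice. Stress-induced minus constitutive was then -0.41 and 0.076 in the knockout mice, against 0.043 and -0.043 in the wild-type mice. Knockout mouse 1 stayed below both wild-type mice, and knockout mouse 2 lay just above them. At the brightest set per gene, the stress-induced average was -0.29 and -0.042 in the knockout mice, against 0.04 and -0.04 in the wild-type mice. The Hspa8 value was then -0.065 and -0.035, against -0.025 and 0.025. On their difference, knockout mouse 1 was again below both wild-type mice, and knockout mouse 2 lay between them. Within the stress-induced class, the 6 sets of Hspa1a, Hspa1b and Dnajb1 averaged -0.52 and -0.11 in the knockout mice, against 0.092 and -0.092 in the wild-type mice. The 9 sets of Hsph1, Hsp90aa1 and Hspb1 averaged -0.13 and 0.027 in the knockout mice, against -0.037 and 0.037 in the wild-type mice. The lower class average in knockout mouse 1 was therefore uneven, with Hspa1b at -0.71, Hspb1 at -0.46, Hspa1a at -0.33, Dnajb1 at -0.32, Hsph1 at -0.078 and Hsp90aa1 at -0.011 in that mouse.

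Both knockout arrays were below both wild-type arrays in 7 of the 23 sets, beside 13.2% of all probe sets, and above them in 1 set, beside 13.9%, which makes 8 sets without overlap, beside 27.1%. The 7 were 2 each of Hspa1b, Dnajb1 and Hspa8 and 1 of Hsp90aa1, so they stand for 4 genes. Of the 15 stress-induced sets 13 were negative with a median of -0.15, and 2 of the 4 Hspa8 sets were negative with a median of -0.0075. Over all probe sets, 22228 of 45037 were negative. A difference as large as that of the dimmest Hspa8 set, in either direction, was found in 0.129% of the probe sets above the median level. The corresponding shares were 0.573%, 0.244% and 0.209% for the Hspa1b sets, 2.6% for each Dnajb1 set and 1.58% for Hspb3. They were 3.31% for Hspa1a and 10.5% and 4.6% for the Hspb1 sets. Over all probe sets, dim ones included, the shares were larger. They were 0.22% for the dimmest Hspa8 set, 1.5%, 0.54% and 0.45% for Hspa1b, 6.0% for each Dnajb1 set and 3.9% for Hspb3. These shares describe the size of the differences, and none of them is a test between mice.

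**Figure D3:**
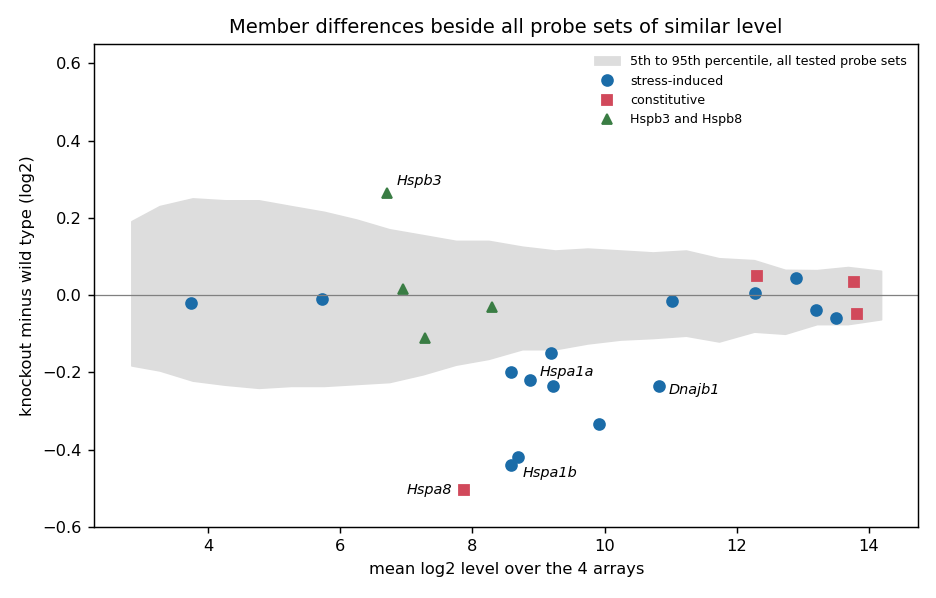
Difference, knockout minus wild type on the log2 scale (y axis), against the mean log2 level over the 4 arrays (x axis) for the 23 member probe sets, over a grey band from the 5th to the 95th percentile of all tested probe sets at similar levels. Below the band lie 9 sets, all of Hspa1a, Hspa1b, Dnajb1 and Hspb1 and the dimmest of Hspa8, the brighter Hspb1 set close to its edge, and Hspb3 lies above it.

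Differences in the rest of the chaperone network were of both signs in the same fit, from -0.24 (Hsf4) to 0.305 (Cryaa). In 8 lists of co-chaperones, heat shock factors and other chaperones, 71 of 77 genes were measured at their brightest probe set, and 0 passed the threshold in either direction in limma. Of these 71, 28 were negative and 42 positive, beside 46% negative and 52% positive among all 18193 genes. The median of the 71 was 0.02, beside 0.005 over all genes. Both knockout arrays lay below both wild-type arrays in 9 genes and above them in 12, beside 12.8% and 15.5% of all genes.

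Other targets of HSF1 were mostly positive. Of 15 measured, 0 passed and 4 were negative, beside 46% of all genes, with a median of 0.03. Bag3, a co-chaperone strongly induced by HSF1, measured 8.35 and 8.48 in the knockout mice, against 8.49 and 8.52 in the wild-type mice. Its difference was -0.09 (SE 0.081 in limma), with knockout mouse 1 lowest. Jun differed by -0.155 (SE 0.11) and the dim Hmox1, which degrades heme, by 0.25 (SE 0.11). Among heat shock factors, Hsf2 measured 6.69 and 6.79 in the knockout mice, against 6.83 and 6.86 in the wild-type mice, and the dim Hsf4 differed by -0.24 (SE 0.11). Of the 5 heat shock factor genes listed 4 were measured, and Hsf1 itself was not analysed here.

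Co-chaperones of HSP70 and HSP90 and the TRiC chaperonin, a folding chamber for actin and tubulin, differed in both directions. Of 15 J-domain co-chaperones 7 were negative and 8 positive, with a median of 0.01, and Dnajb5 had the smallest p, with -0.12 (SE 0.074 in limma). Hspa4, an HSP110 relative of Hsph1, differed by 0.09 (SE 0.071), and the median of the 7 HSP70 and HSP110 genes was -0.015. Bag1, a nucleotide exchange factor, differed by -0.10 (SE 0.079), in a list of 8 with a median of 0.025. Unc45a, which links HSP90 to myosin folding, measured 8.32 and 8.29 in the knockout mice, against 8.49 and 8.46 in the wild-type mice. Its difference of -0.17 (SE 0.07) was the lowest in a list of 8 with a median of 0.038. Of 8 TRiC subunits 6 were positive and 1 negative, with Cct4 at 0.16 (SE 0.084). Among 6 further small heat shock proteins, Cryaa, the alpha-crystallin of the lens, measured 5.86 and 6.03 in the knockout mice, against 5.56 and 5.72 in the wild-type mice, all below the array median. The 5 lens markers averaged 4.71 and 4.78 in the knockout mice, against 4.70 and 4.72 in the wild-type mice. Cryaa is itself in that average. The other lens markers differed in both directions, by -0.135 (Lim2), -0.04 (Mip), 0.03 (Crygs) and 0.05 (Cryba1). Their part in the Cryaa value was not tested.

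**Figure D4:**
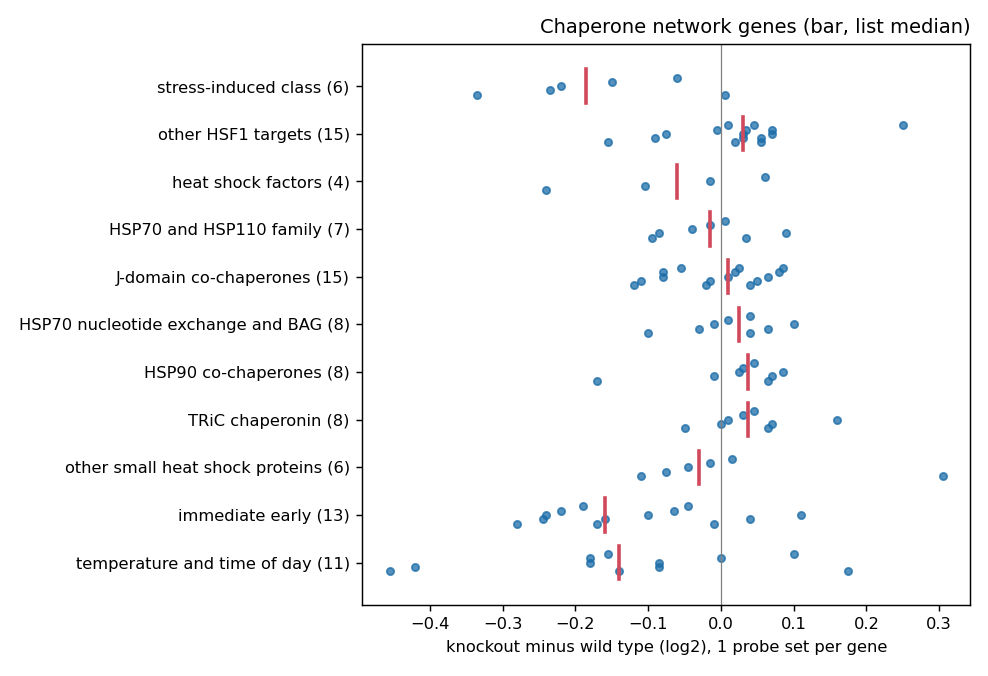
Difference per gene, knockout minus wild type on the log2 scale (x axis), 1 point per gene at its brightest probe set, for the stress-induced members and other lists (rows, genes measured in brackets), with a bar at each list's median. The medians are -0.185 for the 6 stress-induced members, -0.16 for immediate early genes and -0.14 for temperature and time-of-day genes, and lie between -0.06 and 0.038 in the other lists.

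Some genes outside the chaperones respond to handling, body temperature or the hour of dissection, and their values stand here beside those of Hspa1b and Dnajb1. Of 13 immediate early genes, which neurons switch on with activity, 11 were negative, beside 46% of all genes, and 0 passed. Their median was -0.16. The list averaged 9.67 and 9.55 in knockout mice 1 and 2, against 9.82 and 9.64 in the wild-type mice, so knockout mouse 2 was lowest there, while Hspa1b was lowest in knockout mouse 1. Fos measured 11.58 in both knockout mice, against 11.97 and 11.68 in the wild-type mice. Arc measured 10.16 and 10.13 in the knockout mice, against 10.41 and 10.32 in the wild-type mice. In Fos and Arc, as in Dnajb1, both knockout mice were below both wild-type mice and wild-type mouse 1 was highest. Of the 13 genes, 3 were lower without overlap, beside 12.8% of all genes, and 0 were higher without overlap, beside 15.5%.

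Of 11 temperature and time-of-day genes 8 were negative, beside 46% of all genes, and 0 passed, with a median of -0.14. Per2, a clock gene that HSF1 can also activate, measured 7.70 and 7.66 in the knockout mice, against 8.19 and 8.01 in the wild-type mice, and differed by -0.42 (SE 0.091, adjusted p = 1 in limma). Cirbp, which is induced by mild cold, measured 9.83 and 9.40 in the knockout mice, against 9.66 and 9.37 in the wild-type mice. It was highest in knockout mouse 1, where Hspa1b was lowest, and the mice numbered 1 were the higher of each group. In the wild-type mice the orders matched instead, with mouse 1 higher for both Cirbp and the brightest Hspa1b set. The labels record neither the hour of dissection nor body temperature, and the part of these genes in the chaperone values was not tested.

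The genes most like the brightest Hspa1b set were sought among 11637 genes above the median level, by the distance between their 4 array values after each gene was centred on its own mean. The nearest were Tnnt1 (distance 0.218), Uncx (0.242), Zbtb26 (0.248), Rint1 (0.257) and Ly6g6e (0.266). Tnnt1 measured 7.79 and 8.11 in the knockout mice, against 8.29 and 8.18 in the wild-type mice. None of the 5 is a chaperone gene, and likeness over 4 arrays is weak evidence of a shared pattern.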

How the data were processed

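RNA of 4 brains was labelled from 100 ng with a 3' IVT kit and hybridised to 1-colour arrays, per the labels' protocols. The deposited table holds log2 levels per probe set, made by the authors with RMA, per the submitters' processing notes, with no version stated there. RMA gives no detection calls, and dim differences are compressed. Of 45101 rows, 64 control probe sets were left out. Array medians were 6.49 to 6.51. Arrays have no depth, and precision is limited by there being 4 of them.

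Knockout was compared with wild type on all 4 arrays in limma 3.58.1 (R 4.3.3, lmFit and eBayes, 2 residual and 2.74 prior degrees of freedom), two-sided, with Benjamini-Hochberg adjustment over 45037 probe sets and a threshold of 0.05. The fit was tested on simulated data. SEs and 95% intervals are moderated by limma. An exact permutation test of 2 against 2 cannot go below 0.333. Genes in lists were represented by their brightest probe set.

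The members, gene lists, classes and naming rule were chosen with earlier results of these data known. The rule named all members, the 3 genes of smallest p per list, the 5 genes nearest to Hspa1b, Bcas1, Per2, Cirbp, Fos and Arc; not all are described, and markers are named as lists. Alternatives covered array scaling, dim probe sets, the variance model, a replicate block, each array left out and the make-up of the classes. Sequences came from RefSeq, GRCm38.p6.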

Additional observations from a re-analysis of the deposited data

How the results depend on the processing

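Of 45037 probe sets, 1 passed among those above the median level, 10 with an intensity trend and robust variance, 0 with the replicate block and 0 with any 1 array left out, against 2 in the main setting. In these fits 0 member probe sets and 0 genes of the chaperone lists passed in limma, and the lowest adjusted p of a member was 0.573. Same-numbered arrays deviated from their group means with a correlation of 0.241 over probe sets, but the labels do not say that the numbers mark a litter or day, so the block gives only this count, and differences are the same with it. The cause of these shifts in counts was not tested. The median member difference was -0.135 to -0.025 with 1 array left out, the lowest without knockout mouse 2. Where an array was left out its group had 1 mouse, assumed to vary like the other group.

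The sign of 11 of 23 member probe sets held in all 4 such fits, among them all sets of Hspa1b, Dnajb1 and Hspb3. Where the groups did not overlap, the sign could not change in these fits, so its holding adds no support. This applies to 2 of the Hspa1b sets and to all sets of Dnajb1 and Hspb3, among others. The sign changed in 12 sets. The Hspa1a set ranged from -0.465 to 0.025. The Hspa8 sets between the brightest and the dimmest ranged from -0.08 to 0.15 and from -0.2 to 0.3. For Hsp90aa1 the least bright of the 3 bright sets ranged from -0.08 to 0.17 and the dim sets from -0.135 to 0.115 and from -0.135 to 0.095. The Hsph1 sets ranged from -0.065 to 0.075 and from -0.115 to 0.085, the Hspb1 sets from -0.43 to 0.13 and from -0.495 to 0.095, and the brightest and dimmest Hspb8 sets from -0.11 to 0.05 and from -0.15 to 0.18. The brighter Hsph1 set was also at -0.0025 after repeated quantile normalization. The stress-induced average was -0.16 and ranged from -0.28 without knockout mouse 2 to -0.029 without knockout mouse 1. It was -0.083 without Hspa1a and Hspa1b. The Hspa8 average of -0.12 was 0.036 without knockout mouse 2 and 0.012 without its dimmest set. Stress-induced minus constitutive, -0.038, was -0.32 without knockout mouse 2, 0.24 without knockout mouse 1, -0.12 with 1 set per gene, -0.17 without the dimmest Hspa8 set and 0.034 without Hspa1a and Hspa1b. The pooled SD between arrays was 0.13 for the stress-induced average, 0.16 for Hspa8 and 0.28 for the difference between them.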
